A study of Mus musculus with 6 samples.

Results

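The genes described here are interferon-induced antiviral effectors that lie outside the Oas and Ifit families: Bst2, Mx1, Mx2, Rsad2, Cmpk2, Xaf1, Rtp4, Ifi27l2a, Samd9l and Ifi44. They were taken as every array probe whose RefSeq accession belongs to 1 of these 10 symbols, which gave 11 probes for 8 genes, out of 39429 probes on the array. Mx1 and Mx2, a pair of dynamin-like GTPases, had no probe with a matching accession and are not analysed here. All 11 probes passed the filter on dim probes, which left 25221 probes and 14550 named genes in all. The list was chosen by the signals of these same 6 arrays, sleep fragmented against control, together with the known roles of the genes, so their group differences are a description and carry no test.

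The samples were total RNA of heart ventricles of female C57BL/6N mice (an inbred laboratory strain) aged 21 weeks, hybridised 1 sample to an array with Cy3 dye. The sleep fragmented group (3 arrays) came from mice whose sleep had been interrupted over 5 weeks, and the control group (3 arrays) from mice left undisturbed. Separate animals are not mentioned for the 3 samples of a group, so the errors given here cover array-to-array spread and may be technical in part. The comparison asked how chronic sleep fragmentation goes with gene expression in the heart.

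Type I interferons bind a shared receptor, whose kinases activate transcription factors, Stat2 with its partner Irf9 among them. The complex they form binds the interferon-stimulated response element, a short DNA motif, and switches on many genes at once. The proteins described here are among its products, and they act on different steps of a virus's life: release from the cell, copying of its genome, translation, and survival of the host cell. In tissue without infection, a low tonic interferon signal keeps such genes at a basal level in macrophages, endothelium and other cells of the heart.

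In the sleep fragmented hearts 7 of the 8 measured genes had a lower mean than in the control hearts, as did 41.3% of all genes, and 1, Rsad2, had a higher one. The median log2 fold change (sleep fragmented over control) over the 8 genes was -0.77, against 0.05 over all 14550 genes. At least 1.5-fold lower were 5 of the 8 genes (Rtp4, Cmpk2, Xaf1, Ifi27l2a and Bst2), against 1% of all genes. For 4 of the 8 (Rtp4, Cmpk2, Xaf1 and Bst2) the highest sleep fragmented value was under the lowest control value, against 3.97% of all genes. In the other direction 0 of the 8 were at least 1.5-fold higher (2.61% of all genes), and 0 lay above every control array (3.64%). All these counts are fixed in part by how the genes were chosen, and nothing is read from them. By limma over all 25221 probes 0 (0%) had an adjusted p under 0.05 in either direction, with 735 at an unadjusted p under 0.05. Less RNA per cell and fewer cells that carry it cannot be told apart in such whole-tissue samples.

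**Figure D1:**
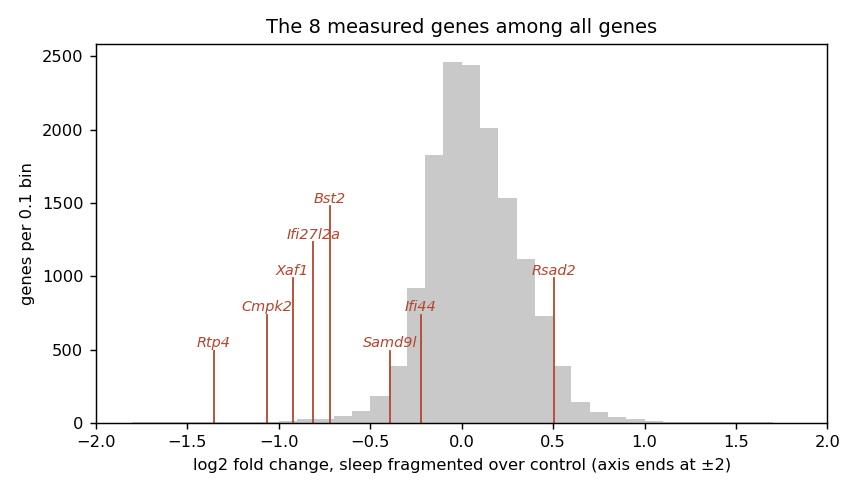
Histogram of the log2 fold change, sleep fragmented over control, of 14550 genes in bins of 0.1 (7 genes lie beyond the axis ends at 2 and -2), with the 8 measured antiviral effectors marked by lines whose heights carry no value. Rtp4 at -1.36 and Cmpk2 at -1.06 lie at the low edge of the histogram, Ifi44 at -0.22 lies within its bulk, and Rsad2 at 0.51 lies in its upper tail.

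All values below are log2 signals relative to the array's own 75th percentile of signal, so 0 is the level that 3 in 4 probes do not exceed. That percentile was 123, 220 and 204 intensity units on sleep fragmented replicates 1, 2 and 3, against 252, 243 and 208 on control replicates 1, 2 and 3. Sleep fragmented replicate 1 was thus the dimmest array, and 59.2% of its probes were well above background, against 67.0% to 72.6% on the other 5. The scan recorded in the file headers is the same for the 3 sleep fragmented arrays and a different one for the 3 controls, so scan and group cannot be told apart for any value here. Of 8 heart muscle markers 8 were measured well above background, with summed signals of 681 to 1174 times the 75th percentile in sleep fragmented hearts and 688 to 847 in controls. Atrial markers were present as well (4 of 5 measured), at 32.7 to 298 in sleep fragmented hearts and 15.5 to 214 in controls, although the tissue is labelled as ventricle. The atrial myosin light chain gene Myl4 read -0.05, 7.46 and 4.42 on sleep fragmented replicates 1, 2 and 3, against -0.12, 7.00 and 4.03 on control replicates 1, 2 and 3. Its level thus followed the replicate number in both groups.

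Among effectors that act on membranes or at the viral genome, Rtp4 and Bst2 both had lower means in sleep fragmented hearts. Rtp4 is a chaperone that brings receptors to the cell surface, and it also blocks the replication of some RNA viruses. Its log2 values were 2.04, 2.01 and 1.68 on sleep fragmented replicates 1, 2 and 3, against 2.85, 3.57 and 3.38 on control replicates 1, 2 and 3. The groups were 0.81 apart at their nearest arrays, the widest gap among the 8 genes when each is read by its brightest probe. This is a 2.56-fold lower signal in sleep fragmented hearts (log2 fold change -1.36 ± 0.23, SE of 3 arrays against 3). Unscaled, the Rtp4 spot read 504, 884 and 654 intensity units on the sleep fragmented arrays, against 1812, 2874 and 2162 on the controls.

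Bst2 encodes tetherin, which spans the membrane and holds budding enveloped viruses to the cell they leave. Its values were 0.54, 0.43 and 0.30 in sleep fragmented hearts, against 0.58, 1.67 and 1.19 in controls, and the log2 fold change was -0.72 ± 0.27 (SE, n = 3), or 1.65-fold lower. The sleep fragmented arrays lay close together (SD 0.12) and the controls did not (SD 0.54). Control replicate 1 stood only 0.05 above the highest sleep fragmented array, so the separation of the groups rests on a narrow margin. Without control replicate 2, the highest array, the log2 fold change was -0.46, and with arrays weighted by their fit it was -0.34. Those weights were 5.81 for control replicate 1 and 3.10 for sleep fragmented replicate 3, against 0.34 to 0.59 for each other array. The weighted value thus leans on 1 array of each group. Bst2 is also a surface marker of plasmacytoid dendritic cells, a source of type I interferon. Of the 8 markers of those cells 6 were measured, with summed signals of 125 to 188 in sleep fragmented hearts and 128 to 158 in controls. Most of that sum came from 1 gene, Cox6a2, so it mainly gives the level of that gene. Cox6a2 read 7.25, 6.58 and 6.84 in sleep fragmented hearts and 6.92, 6.62 and 6.97 in controls, within the range of the heart muscle markers. Siglech, a lectin gene of plasmacytoid dendritic cells, read 4.31, 3.90 and 3.98 in sleep fragmented hearts and 4.19, 3.88 and 3.72 in controls. The part of these cells in the Bst2 values was not tested.

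The sequence before the Bst2 start holds the motif of the interferon pathway, and it is shown because the letters can be seen there in 2 overlapping copies. The 250 bases upstream of the RefSeq gene start (GRCm38.p6, chr8:71537473-71537722, minus strand, written 5′ to 3′ along the gene) are given with matches to the core GAAANNGAAA in capitals.
Bst2: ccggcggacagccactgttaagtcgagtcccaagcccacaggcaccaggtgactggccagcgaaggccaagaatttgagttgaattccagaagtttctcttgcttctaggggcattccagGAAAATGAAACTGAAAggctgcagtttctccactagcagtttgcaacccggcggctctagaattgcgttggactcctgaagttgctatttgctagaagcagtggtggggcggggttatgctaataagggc
The matches GAAAATGAAA and GAAACTGAAA span bases -130 to -121 and -124 to -115 relative to the start. A match to TTCNNNGAA, the core of the gamma-activated site, another motif of interferon-induced genes, lies at bases -136 to -128 and overlaps the first of them.

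The products of Rsad2 and Cmpk2 are tied to the same nucleotide, CTP. The 2 genes are neighbours on chromosome 12, where their starts face away from each other, yet their means differed in opposite directions. Rsad2 encodes viperin, which turns CTP into a chain terminator of viral RNA synthesis, and Cmpk2 encodes a mitochondrial kinase that helps to supply CTP. Cmpk2 read -0.32, -0.77 and -0.74 in sleep fragmented hearts, against 0.02, 0.76 and 0.58 in controls, with no overlap. Its log2 fold change was -1.06 ± 0.24 (SE, n = 3), or 2.09-fold lower, and with normexp background correction it was -0.68. A second and dimmer Cmpk2 probe gave -0.58 ± 0.26, with values of -2.22, -3.02 and -2.56 in sleep fragmented hearts and -2.36, -2.04 and -1.65 in controls. On that probe the groups overlapped, because sleep fragmented replicate 1 stood above control replicate 1.

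Rsad2 read 0.62, -0.67 and -0.72 in sleep fragmented hearts, against -1.13, -0.66 and -0.52 in controls. Its mean was higher in sleep fragmented hearts through 1 array: sleep fragmented replicate 1 stood above all others, and the other 2 lay inside the range of the controls. The log2 fold change was 0.51 ± 0.36 (SE, n = 3), and it was 0.07 without sleep fragmented replicate 1, 0.33 without control replicate 1, 0.30 with median scaling and 0.32 with normexp. The unscaled spot read 188, 138 and 123 intensity units on sleep fragmented replicates 1, 2 and 3, and 115, 154 and 145 on control replicates 1, 2 and 3. Unscaled too, sleep fragmented replicate 1 was the highest. Sleep fragmented replicate 1 was also the highest of the 6 arrays for 28.4% of all genes, against 12.8% to 15% for each other array, and the lowest for 18.9%. It also carried the most red blood cell RNA: over the 5 of 8 erythroid markers measured the mean deviation was 1.63 on that array, 0.43 and -0.01 on the other sleep fragmented arrays and -0.86, -0.56 and -0.63 on controls. Their summed signal was 166 to 403 times the 75th percentile in sleep fragmented hearts and 107 to 122 in controls. In 4 of the 5 every sleep fragmented value exceeded every control value, as in 3.64% of all genes. The part of that array's low brightness and of its erythroid RNA in the Rsad2 value was not tested.

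The windows before these neighbouring genes are set side by side because the product of Cmpk2 helps to supply the CTP that viperin uses. Their signals nevertheless did not go the same way. Both are 250 bases of GRCm38.p6, for Rsad2 chr12:26456453-26456702 on the minus strand and for Cmpk2 chr12:26468965-26469214 on the plus strand, with matches to the same core on either strand in capitals.
Rsad2: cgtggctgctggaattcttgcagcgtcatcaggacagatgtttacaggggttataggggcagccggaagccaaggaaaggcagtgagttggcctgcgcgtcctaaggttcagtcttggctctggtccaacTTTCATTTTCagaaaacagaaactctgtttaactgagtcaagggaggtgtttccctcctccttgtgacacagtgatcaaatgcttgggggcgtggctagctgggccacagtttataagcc
Cmpk2: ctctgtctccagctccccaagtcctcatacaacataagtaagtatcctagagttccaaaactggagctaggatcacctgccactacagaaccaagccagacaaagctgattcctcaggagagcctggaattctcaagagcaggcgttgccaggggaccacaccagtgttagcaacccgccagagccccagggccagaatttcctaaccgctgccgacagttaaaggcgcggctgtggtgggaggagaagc
Rsad2 has 1 match, TTTCATTTTC, the core read on the opposite strand, at bases -120 to -111. The window of Cmpk2 holds 0 matches, which says only that these letters are not in these 250 bases.

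Windows were found for 6 of the 10 symbols, and 2 of the 6 (Bst2 and Rsad2) held the core GAAANNGAAA, whose reverse complement TTTCNNTTTC was searched as well. Of 32851 such windows of mouse genes 978 (2.98%) held it. Among 61 other antiviral effector genes with a window 25 held it, and among 19 interferon receptor and signalling genes 3 did. The core TTCNNNGAA, a palindrome, was present in 1 of the 6, in 8 of the 61, in 5 of the 19 and in 2306 (7.02%) of all windows. Windows of Xaf1, Samd9l and Ifi44 held 0 matches to either core, and a match is a description of letters, not of binding.

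**Figure D2:**
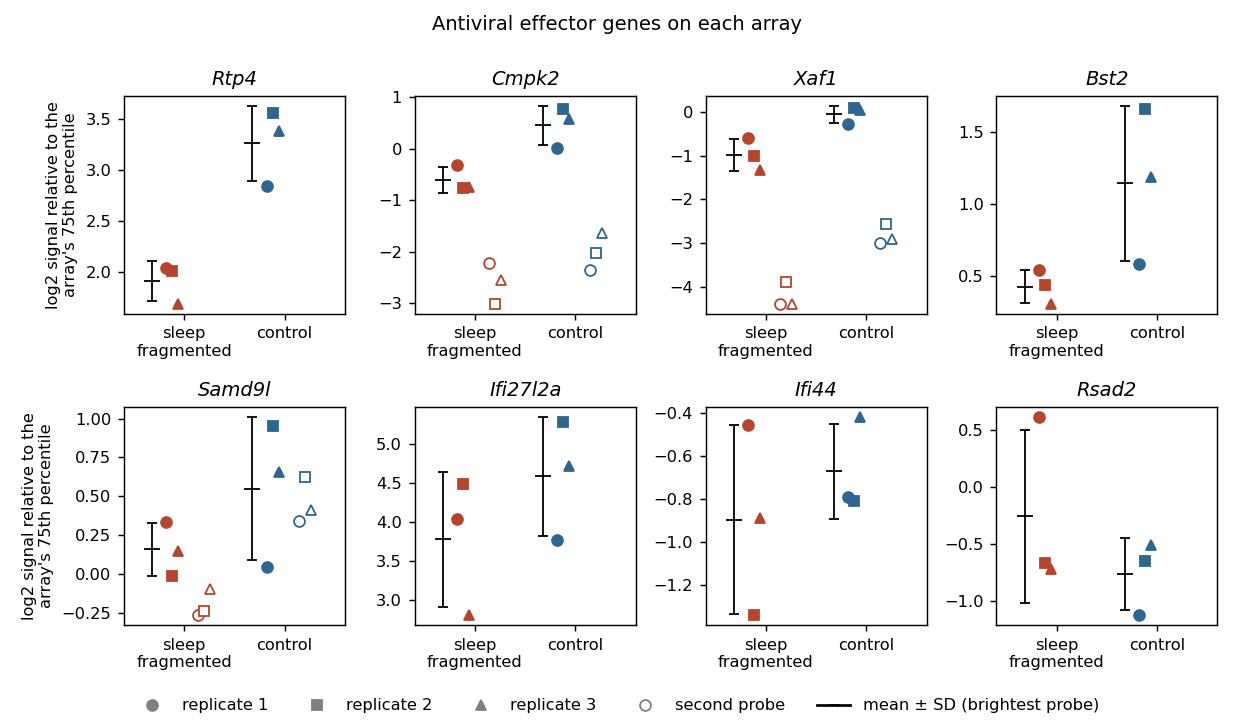
Log2 signal relative to the array's 75th percentile for each measured gene, with sleep fragmented arrays left of control arrays, 1 symbol shape per replicate, open symbols for a second probe, and black bars for the mean ± SD of the brightest probe (n = 3 per group). The groups are apart for Rtp4, Cmpk2, Xaf1 and narrowly Bst2, overlap for Ifi27l2a, Ifi44 and the brightest Samd9l probe, and Rsad2 has 1 sleep fragmented array far above the rest.

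The remaining 4 genes act on cell survival, translation or in ways less well known. Xaf1 binds the apoptosis inhibitor Xiap and favours cell death. It read -0.60, -1.02 and -1.33 in sleep fragmented hearts, against -0.29, 0.08 and 0.03 in controls. The groups did not overlap, and the log2 fold change was -0.92 ± 0.23 (SE, n = 3), or 1.90-fold lower, and with normexp it was -0.60. A second Xaf1 probe was well above background on 3 of 3 controls and on 0 of 3 sleep fragmented arrays, so it gives only a rough bound. With each sleep fragmented value set to the dimmest signal well above background on its array, the mean was 1.33-fold lower than in controls. On sleep fragmented replicate 1 that level was -2.58, above control replicates 1 and 3 at -2.99 and -2.90. That array alone thus gave no bound. The measured log2 means of this probe were -4.22 and -2.82 in the sleep fragmented and control groups. Xiap itself had a log2 fold change of -0.04 ± 0.24.

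Samd9l, which restrains translation and cell growth, was represented by 2 probes that differed in how cleanly they split the groups. The brightest probe read 0.33, -0.01 and 0.15 in sleep fragmented hearts, against 0.05, 0.95 and 0.65 in controls, and the groups overlapped (log2 fold change -0.39 ± 0.25, SE, n = 3). The other read -0.26, -0.24 and -0.10 in sleep fragmented hearts, against 0.34, 0.62 and 0.41 in controls, with no overlap (-0.66 ± 0.18). For the brightest probe it was control replicate 1 that lay among the sleep fragmented arrays. Its log2 fold change was -0.64 without control replicate 1, -0.19 without control replicate 2, -0.60 with median scaling and 0.01 with array weights.

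Ifi27l2a encodes a small hydrophobic protein of membranes, strongly induced by interferon. Its values spread widely in both groups, at 4.04, 4.48 and 2.80 in sleep fragmented hearts and 3.77, 5.28 and 4.72 in controls. The log2 fold change of -0.81 ± 0.47 (SE, n = 3) was smaller than the SD within the sleep fragmented group (0.87), and the groups overlapped. Sleep fragmented replicate 3 carried much of it, since without that array the log2 fold change was -0.33. It was -0.47 without control replicate 2 and -1.22 without control replicate 1. Ifi44, a cytoplasmic protein that limits cell growth and some viruses, read -0.46, -1.34 and -0.89 in sleep fragmented hearts, against -0.79, -0.81 and -0.42 in controls. Its log2 fold change of -0.22 ± 0.25 was within its error, and single arrays moved it between -0.44 (without sleep fragmented replicate 1) and -0.0011 (without sleep fragmented replicate 2), with -0.10 without control replicate 3. It was -0.43 with median scaling, -0.14 with normexp and -0.13 with array weights.

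**Figure D3:**
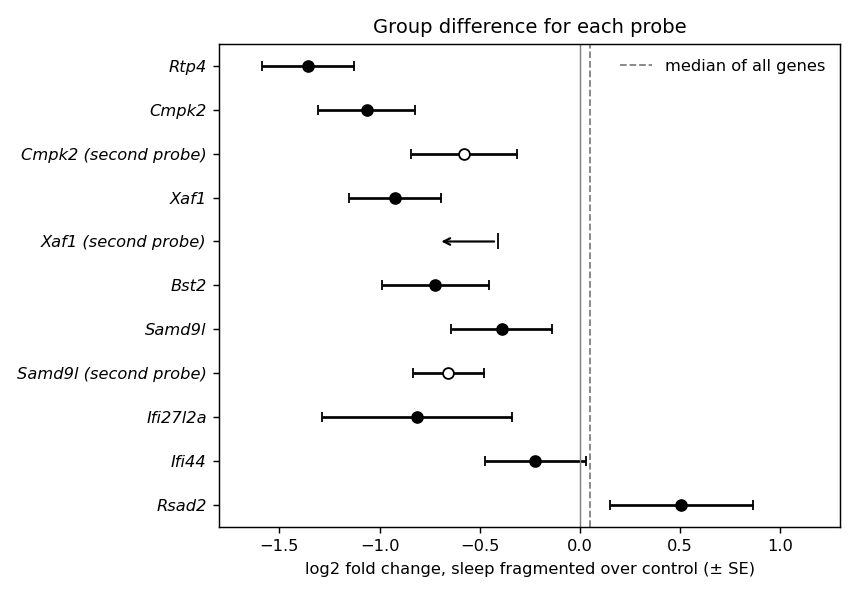
Log2 fold change, sleep fragmented over control, with its moderated standard error (n = 3 arrays per group) for 10 probes, filled for the brightest probe of a gene and open for a second probe. The second Xaf1 probe, not well above background on the sleep fragmented arrays, is drawn as a rough bound (1.33-fold lower) with an arrow of arbitrary length. The dashed line is the median of all genes (0.05). The points run from -1.36 for Rtp4 to -0.22 for Ifi44, and Rsad2 lies at 0.51.

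Within each group the genes shared an order of arrays, so single arrays weigh on the whole set. Among controls, replicate 1 was the lowest for 7 of the 8 genes and replicate 2 the highest for 6. Over all genes control replicate 2 was the lowest of the 6 arrays for 37.1%, against 7.51% to 18.9% for each other array, and the highest for 15%. Among sleep fragmented arrays, replicate 1 was the highest for 7 of the 8 and replicate 3 the lowest for 5. Averaged over the 8 genes, the deviation from each gene's mean was 0.02, -0.36 and -0.59 on sleep fragmented replicates 1, 2 and 3, against -0.12, 0.60 and 0.45 on control replicates 1, 2 and 3. On this average sleep fragmented replicate 1 stood above control replicate 1, and the groups overlapped.

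The file headers give a barcode number that 1 array of each group shares, and the same arrays share a replicate number. In the pair of replicates numbered 1 the median difference over the 8 genes was 0.11, with 4 of 8 lower in the sleep fragmented array. In the pairs numbered 2 and 3 it was -1.03 and -1.10, with 8 of 8 lower in each. Rtp4 was lower in all 3 pairs, by differences of -0.81, -1.56 and -1.70, and so were Cmpk2 (-0.34, -1.53 and -1.32) and Xaf1 (-0.31, -1.10 and -1.36). Bst2 differed by -0.05, -1.23 and -0.89. What that number stands for is not stated in the headers. Atrial markers were also lowest on both arrays of pair 1, with mean deviations of -1.73 in the sleep fragmented and -2.15 in the control array. In pair 2 they stood at 2.69 in the sleep fragmented and 1.53 in the control array, and in pair 3 at -0.06 in the sleep fragmented and -0.28 in the control array. Their part in these differences was not tested.

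**Figure D4:**
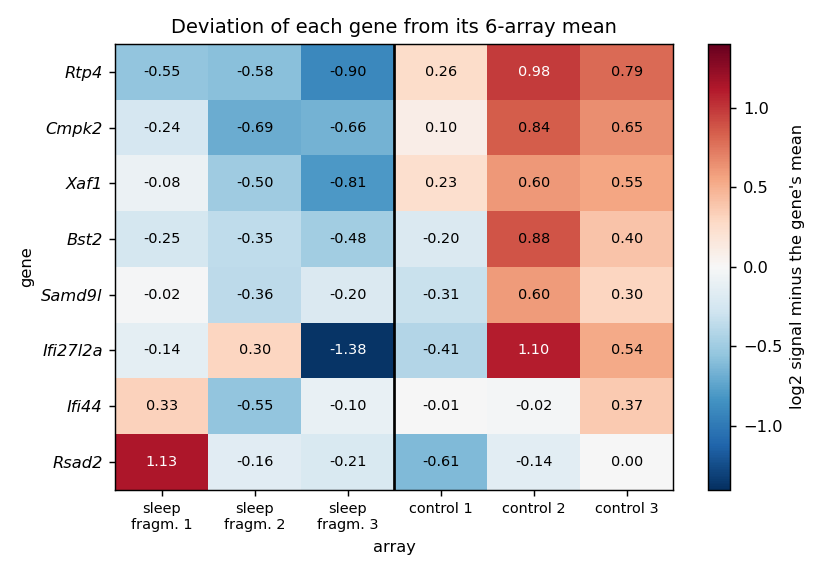
Deviation of each gene (rows) from its own mean over the 6 arrays (columns, sleep fragmented left of the line and control right of it) on the log2 scale, printed in each cell and coloured from blue (below the mean) to red (above it). Control 2 is above the mean for 6 of the 8 genes and control 3 for 7, control 1 is mixed, and sleep fragmented 1 is red for Rsad2 (1.13) and Ifi44 (0.33).

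Control replicate 2, the highest array for 6 of the 8 genes, also carried the highest level of lymphocyte markers. Over the 9 of 12 such markers measured, the mean deviation was 0.78 on that array and between -0.41 and 0.17 on the others. Their summed signal was 5.99 to 8.34 times the 75th percentile in sleep fragmented hearts and 7.17 to 12.3 in controls. With that array left out the median log2 fold change of the 8 antiviral genes was -0.46, and 4 of the 8 lay below both remaining controls, as did 7.48% of all genes. Macrophage and monocyte markers (8 of 11 measured) summed to 12.9 to 23.8 in sleep fragmented hearts and 13.4 to 17.9 in controls. Endothelial markers (7 of 7) summed to 41.4 to 55.2 in sleep fragmented hearts and 47.0 to 58.7 in controls. Neutrophil markers (5 of 7) summed to 38.0 to 43.3 in sleep fragmented hearts and 31.7 to 45.9 in controls, mostly through 1 gene, Csf3r. Their mean deviation was 0.25, -0.42 and -0.14 on sleep fragmented replicates 1, 2 and 3. It was -0.47, 0.49 and 0.29 on control replicates 1, 2 and 3. On this mean the controls stood in the same order as for the antiviral genes. They did so too for lymphocyte markers (-0.41, 0.78 and -0.14) and for macrophage and monocyte markers (-0.24, 0.13 and -0.02). Of the neutrophil markers only S100a8 and S100a9 had that order. S100a9, an abundant neutrophil protein gene, read -0.62, -1.72 and -1.24 in sleep fragmented hearts and -1.76, 1.71 and 0.19 in controls. Cxcr2, Mmp8 and Csf3r were instead lowest of the 6 arrays on control replicate 2, at -2.31, -3.14 and 4.76. Fibroblast markers (6 of 6) all had higher means in sleep fragmented hearts (median log2 fold change 0.39), while 41.3% of all genes had lower ones. Their sums were 85.7 to 131 in sleep fragmented hearts and 82.4 to 90.1 in controls. The part of these cell types in the antiviral genes was not tested.

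Of the pathway that induces these genes, the ligands had small differences of either sign, mostly positive. Of 20 receptor and signalling genes 3 lay below every control array, as did 3.97% of all genes. Of 21 interferon genes 11 were measured, with a median log2 fold change of 0.20. Of these 10 were positive and 1 negative, against 41.3% of all genes negative. Ifnb1 and Ifng had probes but were too dim to be kept, and probes for the Ifna genes may cross-hybridise, since those genes are very much alike. The receptor subunit genes Ifnar1 (-0.05 ± 0.22) and Ifnar2 (-0.12 ± 0.19) were measured on all arrays. Over the 20 of 22 receptor and signalling genes measured, the median was -0.08, and 2 lay above every control array (3.64% of all genes). Usp18, which limits signalling at the receptor, had a log2 fold change of -1.70 ± 0.25 (adjusted p = 0.552 by limma). Irf9 had -1.08 ± 0.21 (0.855) and Stat2 -0.96 ± 0.19 (0.938). By limma over all probes 0 of the 20 passed in either direction.

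Other antiviral effectors, 61 of 73 measured, had a median log2 fold change of -0.46, with 48 negative values (41.3% of all genes). In 27 of the 61 the sleep fragmented values all lay under the control values (3.97% of all genes), and in 2 all lay above (3.64%). By limma 0 of the 61 passed in either direction, with the smallest adjusted p at 0.552, for Phf11d (-1.28 ± 0.19). Relatives and partners of the antiviral genes had a median of -0.0025 over the 9 of 13 measured. Among them Ifi27, a relative that neighbours Ifi27l2a, had -0.0025 ± 0.37, and Ifi27l2b, another relative, -0.55 ± 0.57. Cmpk1, the cytosolic counterpart of Cmpk2, had -0.30 ± 0.17, and the dynamin genes Dnm1 (0.0088 ± 0.22), Dnm2 (0.08 ± 0.19), Dnm3 (0.03 ± 0.28) and Dnm1l (-0.17 ± 0.18) lay near 0. Rtp2, a paralogue of Rtp4, had 0.47 ± 0.37. None of these 9 passed by limma (adjusted p of 0.938 or more).

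Outside the list, the genes closest to the mean profile of the 8 were found by the root mean square difference of values centred on each gene's mean over the 6 arrays. They were Dhx58 (0.05 on the log2 scale), Ly6a (0.09), Ccl2 (0.11), Fcgr1 (0.13) and Slfn2 (0.13). By the same measure Bst2 (0.17), Xaf1 (0.19) and Samd9l (0.19) lay nearest to the mean of their own list and Rsad2 (0.64) farthest. The 5 genes closest to Rsad2 taken alone were Eif4e2 (0.09), Cdkn2a (0.12), Ocstamp (0.16), Caln1 (0.17) and Gfra4 (0.17). All 5 had their highest value on sleep fragmented replicate 1, between 0.90 and 1.26 above their means. The group difference enters this likeness.

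**Figure D5:**
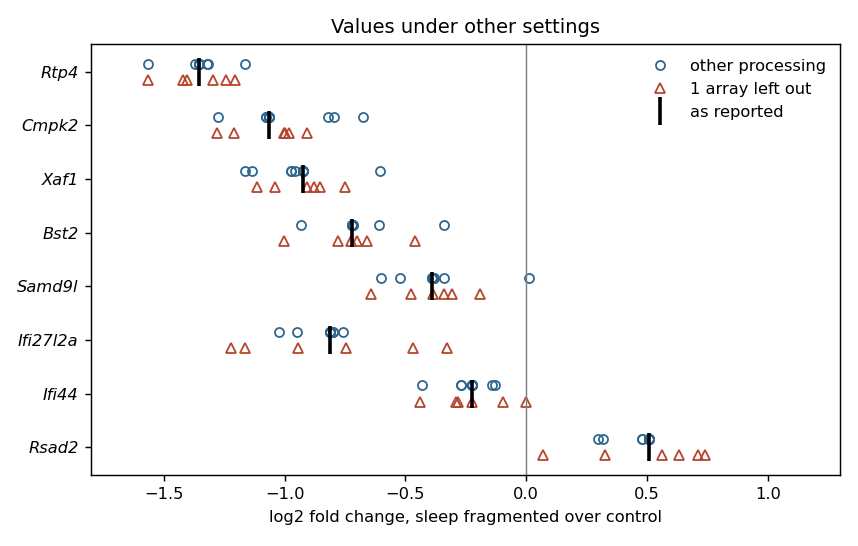
Log2 fold change, sleep fragmented over control, of each gene as reported (black mark), under 10 other ways of processing or fitting (blue circles) and with 1 of the 6 arrays left out (red triangles). Rtp4, Cmpk2, Xaf1, Bst2 and Ifi27l2a stay below 0 under each of these. Samd9l reaches 0.01 with array weights, and Ifi44 reaches -0.0011 without sleep fragmented replicate 2. Rsad2 stays above 0 but falls to 0.07 without sleep fragmented replicate 1. The filters on dim probes, the replicate block and the other prior could not move these values, so their circles repeat the reported value.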

How the data were processed

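Total RNA of heart ventricles, 6 samples, was measured on 1-colour Agilent arrays (design 026655). The authors deposited scanner intensity values per array, made with Agilent Feature Extraction 11.0.1.1 per the file headers; version 10.5.1.1 is listed per the submitters' processing notes. Control titles also carry the words sleep fragmented, and groups follow the SF or Control at their end. The authors also deposited a table of log2 values, with scaling and centring unstated. Each of its columns has a median of 5.54 and a correlation of at least 0.998 with the scanner values of the same array, and it served as an alternative only.

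Control and outlier spots were left out, log2 processed signals were averaged per probe, and each array's 75th percentile was subtracted. A probe was kept where all 3 arrays of 1 group or of both were well above background; 0 spots were saturated. Unversioned accessions were matched to a RefSeq table (GRCm38.p6), which named 27234 of 39429 probes. The array was designed on another build (mm9), so no positions are given for probes. Promoter windows come from RefSeq, build GRCm38.p6. The brightest kept probe stood for a gene.

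Groups were compared with limma 3.58.1 (lmFit, eBayes) in R 4.3.3, with p-values (both sides) adjusted by Benjamini-Hochberg across the kept probes at a threshold of 0.05. The fit was tested on simulated data. Errors are moderated standard errors or SDs; the number of arrays limits precision. Members and lists were chosen with earlier results of these data known. Named were all members, kept relatives, up to 4 genes of each pathway list by smallest p, and the 5 nearest profiles. Ifnar1 and Ifnar2 (chosen as the receptor) and single cell type markers were also named, after values were seen. Alternatives covered scaling, background correction, filters, probe choice, blocks, array weights, the prior and leaving out arrays.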

Additional observations from a re-analysis of the deposited data

How the results depend on the processing

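The median log2 fold change of the 8 antiviral genes was negative under all 16 alternatives. Some of these could not change it: the filters on dim probes, the replicate block and the other prior. Under them each gene keeps its probe and its group difference, so they add nothing here. With single arrays left out the median lay between -1.02 (without control replicate 1) and -0.46 (without control replicate 2). Otherwise it lay between -0.98 (median scaling) and -0.55 (array weights). Median scaling also moved the median of all genes, to -0.16, and relative to all genes the 8 then stood at -0.82, the value found with the 75th percentile. With all 6 arrays, 4 to 6 of the 8 lay below every control array, against 3.52% to 8.07% of all genes. The 6 came from median scaling, which also gave the 8.07%. With 1 array left out it was again 4 to 6 of the 8, against 7.06% to 10.2% of all genes, and the 6, without control replicate 1, stood against 7.79%. Of the single genes only Samd9l changed sign under any alternative, to 0.01 with array weights. The count of probes past the adjusted threshold was 0 as reported, 3 with normexp, 4 with the replicate block and 53 with array weights. It was 0 under every other setting run, leaving out any array included. The array weights leaned on control replicate 1 (5.81) and sleep fragmented replicate 3 (3.10), against 0.34 to 0.59 for each other array. At an unadjusted p under 0.05 the 735 probes became 1123 with median scaling, 1531 without the filter on dim probes, 2018 with the replicate block and 5995 with array weights. They became 450 without sleep fragmented replicate 1, 1226 without sleep fragmented replicate 2, 473 without control replicate 1 and 3013 without control replicate 3; the causes were not tested. The replicate numbers were not taken to pair the samples, since the deviations of same-numbered arrays correlated at 0.06, 0.55 and 0.21, and the first is below the 0.1 asked of each pair; atrial markers nevertheless followed the number in both groups. The barcode numbers follow the replicate numbers, so a block on them is the same fit. Normexp was run on median spot signals. Signals near background limit the second probes of Xaf1 and Cmpk2.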
